A study of Mus musculus with 4 samples.

Results

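Accessibility at the cyclins, cyclin-dependent kinases, E2F factors and DNA replication genes was read from ATAC-seq libraries of satellite cells, the stem cells of skeletal muscle. These 38 genes were taken as a list of names, and every region that the authors' table links to any of them by gene name was kept. That gave 34 regions for 29 of the genes, out of 35019 regions in all, of which 11829 carry a gene name. Regions reaching within 1 kb of the linked gene's start are called promoter regions here (29 of the 34, at 28 genes), and the other 5 are called distal. The 38 genes were split into 15 of G1 and the restriction point, 11 of S phase and 12 of G2 and mitosis. All 34 regions passed the filter on low values.

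Satellite cells of mdx mice, whose Dmd gene carries a germline mutation so that the muscle lacks dystrophin, were compared with satellite cells of wild type mice. Both groups were sorted by flow cytometry, labelled quiescent, and handled without any treatment that the labels name. The labels give no age, sex or sorting markers, and the mutation is present in every cell of the animal, not in satellite cells alone. Each condition had 3 mice by the design text, while 4 libraries, 2 for each group, were analysed. Nothing states that the 2 libraries of a group came from separate animals, so the p-values measure the spread between libraries.

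Satellite cells rest outside the cell cycle and enter it after injury. In G1, D-type cyclins with CDK4 or CDK6, and then cyclin E with CDK2, phosphorylate the retinoblastoma family and free E2F factors, which switch on the genes of DNA replication. Cyclin A and cyclin B with CDK1, the kinases Plk1, Aurka and Aurkb and the spindle checkpoint then drive and control mitosis. In resting cells many of these genes are held down by the DREAM complex, which contains Rbl1 or Rbl2 together with E2f4 and reaches mitotic genes through the CHR element.

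In mdx satellite cells the promoter region of Ccne1, the gene of cyclin E1, fell 1.82-fold, and a region inside E2f3 that lies on a second RefSeq start of that gene fell 2.22-fold. These were the 2 of 34 regions that passed the test, both in G1 genes and both lower in mdx. No region of the S phase or mitotic genes passed in either direction. Among all 33161 tested regions 4.18% were called, 0.881% as lower and 3.3% as higher in mdx, and among the 11292 tested promoter regions 2.42% were called, 1.73% as lower and 0.691% as higher. Of the tested distal regions 5.09% were called, 0.444% as lower and 4.65% as higher. Counts of 1 lower promoter region in 29 and 1 lower distal region in 5 are too small to read against these shares. The E2f3 region counts as distal by the deposited start, although it lies on a RefSeq start, so the promoter summaries below leave it out. With the distal medians of the libraries set equal, 11 of the 34 regions were called, all lower, against 14.1% of all tested regions in both directions. That setting called 3465 of all tested regions lower and 1222 higher. It also moved the median log2 fold change of all tested promoter regions from -0.25 to -0.58. The share of promoter regions it called lower was not counted, so the 11 have no matching share. The test was limma on log2(value + 1), with Benjamini-Hochberg adjustment over all tested regions and a threshold of 0.05.

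Values are scaled reads per region, that is reads the authors multiplied by a factor for each library and rounded. Undoing this scaling left 3208479 and 3607633 reads in the listed regions of the mdx libraries, and 3693096 and 8164388 in those of wild type. The share of the nuclear signal lying in promoter regions was 52.76% and 57.21% in mdx and 64.15% and 61.09% in wild type, so this share moved with the groups, and its part in the promoter values below was not tested. The median log2 fold change of all tested promoter regions was -0.25, and of all tested distal regions 0.19. As a check of the label, 6 of 10 satellite cell markers had a promoter region (Cdh15, Itga7, Notch3 and Vcam1 had none), with summed values of 1426 and 1326 in mdx and 1536 and 1491 in wild type. Markers of fibro-adipogenic progenitors had a promoter region in 4 of 8 cases, Pdgfra, Lum, Ly6a and Pi16 having none, and summed to 206 and 227 in mdx against 113 and 152 in wild type. The part of these cells in the results was not tested. Of 7 immune markers, 0 had a promoter region. A promoter region was listed for 1 of 5 endothelial markers (summing to 152 and 131 in mdx, 131 and 146 in wild type) and 1 of 5 muscle fibre markers (87 and 110 in mdx, 44 and 73 in wild type). In bulk chromatin, fewer cells with an open region and less opening per cell cannot be told apart.

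**Figure D1:**
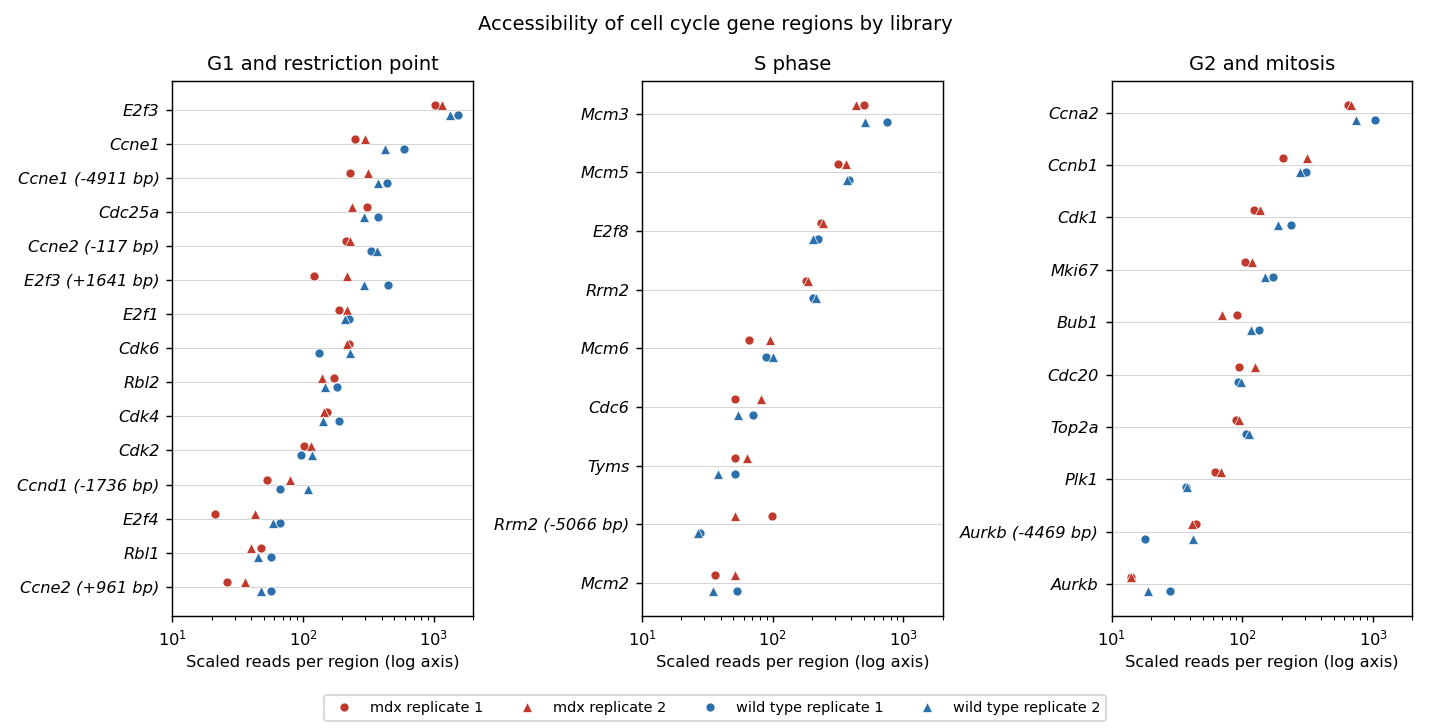
Scaled reads per region (horizontal log axis) at the 34 regions of the cell cycle genes, with 1 point per library, circles for replicate 1 and triangles for replicate 2, mdx above wild type in each row. Distances in bp from the gene's start mark distal regions and genes with 2 promoter regions. E2f3 and Ccna2 hold the highest values of their classes, and both Ccne1 regions are lower in both mdx libraries.

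The E-type cyclins, which activate CDK2 at the passage from G1 to S, had log2 fold changes below 0 at all 4 of their regions, and 1 of these passed. The 4 regions belong to Ccne1 and Ccne2 only. Of all tested promoter regions 74.6% lay below 0, and of tested distal regions 38.3%. Ccne1 has a promoter region on chr7:38107326-38108070, 744 bp wide with its centre 164 bp upstream of the start, and it held 250 and 299 scaled reads in mdx, against 589 and 421 in wild type. Both mdx libraries lay below both wild type libraries, as at 43.5% of all tested promoter regions. The means were 274.5 ± 34.6 in mdx and 505 ± 119 in wild type (SD, n = 2 each), and the log2 fold change was -0.86, SE 0.21 (limma, adjusted p = 0.0378). The recovered reads behind these values number 181 and 257 for mdx and 482 and 856 for wild type. The other Ccne1 region, 801 bp wide and centred 4911 bp upstream, held 228 and 314 in mdx and 437 and 372 in wild type. Its groups did not overlap either, as at 16.8% of tested distal regions with mdx lower, and it did not pass (limma log2 fold change -0.59, SE 0.21, adjusted p = 0.118).

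Ccne2 encodes cyclin E2, the close relative of cyclin E1. Its main promoter region, centred 117 bp upstream of the start, held 213 and 228 in mdx and 331 and 366 in wild type (limma log2 fold change -0.66, SE 0.19, adjusted p = 0.0709). A narrow second region 961 bp downstream held 26 and 36 in mdx and 57 and 48 in wild type (limma log2 fold change -0.75, adjusted p = 0.255). Neither passed. In both the mdx libraries lay below the wild type libraries, as at 43.5% of all tested promoter regions. The call at the Ccne1 promoter ended with no filter on low values (limma, adjusted p = 0.0725), and that at the main Ccne2 promoter was made with voom on the recovered reads (adjusted p = 0.0464) and with a mean value of at least 50 (limma, adjusted p = 0.0312).

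E2f3 encodes an activating E2F factor and is transcribed from 2 starts in RefSeq, giving the isoforms known as E2f3a and E2f3b. The table links 2 regions to it on chromosome 13, which has the gene on the minus strand. The downstream region, chr13:29984224-29984619, is centred 1641 bp inside the gene by the deposited start, and the second RefSeq start, at position 29984391, lies in it, 30 bp from its centre. It held 122 and 215 scaled reads in mdx, against 446 and 292 in wild type. All mdx values were below all wild type values, as at 16.8% of tested distal and 43.5% of tested promoter regions. The 2 libraries within each group differed widely. The means were 168.5 ± 65.8 in mdx and 369 ± 109 in wild type (SD, n = 2 each), and the log2 fold change was -1.15, SE 0.28 (limma, adjusted p = 0.0412). Leaving out mdx replicate 1 gave -0.75 and mdx replicate 2 gave -1.56, and leaving out wild type replicate 1 gave -0.85 and wild type replicate 2 gave -1.46. The call also ended with no filter on low values (limma, adjusted p = 0.0852) and with a pseudocount of 0.1 (0.0563).

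At the upstream start of E2f3, a region 904 bp wide held 1020 and 1164 in mdx and 1537 and 1318 in wild type. That is the highest value of the 15 regions of G1 genes. The groups did not overlap, as at 43.5% of all tested promoter regions with mdx lower. The log2 fold change, -0.39 with SE 0.14, did not pass (limma, adjusted p = 0.13). After cyclic loess, which removes a trend of the change with the level, it was -0.03. The difference between the changes at the 2 starts was not tested.

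The windows of the lowered Ccne1 promoter and of both E2f3 starts are printed so that the 2 places that passed can be set beside the stronger E2f3 start that did not. They run from 250 bases before to 50 bases after each start, on the gene's strand, from RefSeq (GRCm38.p6). Capitals mark matches to 3 motifs on either strand: the CHR element TTTGAA, the CCAAT box CCAAT, and an E2F-like core spelled as TTCCCGC, in other cases as TTCGCGC, as the form TTGGCGC, or as the form TTGCCGC. A reverse match of TTGGCGC ends in CCAA, so it can share bases with a CCAAT box.
Ccne1, chr7:38107441-38107740, minus strand: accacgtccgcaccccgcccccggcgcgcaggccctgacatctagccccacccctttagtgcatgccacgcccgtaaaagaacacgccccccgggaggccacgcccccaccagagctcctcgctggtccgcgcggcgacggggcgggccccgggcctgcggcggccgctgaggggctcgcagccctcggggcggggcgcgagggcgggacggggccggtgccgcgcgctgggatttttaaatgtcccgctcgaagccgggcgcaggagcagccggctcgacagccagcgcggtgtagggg
E2f3 downstream start, chr13:29984342-29984641, minus strand: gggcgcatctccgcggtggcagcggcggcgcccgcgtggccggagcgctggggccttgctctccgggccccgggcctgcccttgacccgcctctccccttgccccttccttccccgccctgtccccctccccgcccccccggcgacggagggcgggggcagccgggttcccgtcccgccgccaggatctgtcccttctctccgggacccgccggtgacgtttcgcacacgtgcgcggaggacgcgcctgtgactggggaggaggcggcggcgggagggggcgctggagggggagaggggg
E2f3 upstream start, chr13:29986014-29986313, minus strand: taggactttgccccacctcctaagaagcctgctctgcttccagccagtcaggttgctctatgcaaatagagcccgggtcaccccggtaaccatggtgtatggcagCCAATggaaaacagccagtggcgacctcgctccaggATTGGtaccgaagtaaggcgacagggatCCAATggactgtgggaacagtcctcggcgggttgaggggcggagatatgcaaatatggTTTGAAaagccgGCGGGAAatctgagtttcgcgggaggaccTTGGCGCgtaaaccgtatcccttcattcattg

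Within these windows Ccne1 and the downstream E2f3 start hold 0 matches to any of the 3 motifs. The upstream E2f3 start holds 1 CHR element, 3 CCAAT boxes and 2 E2F-like cores. A match or its absence describes these letters only.

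**Figure D2:**
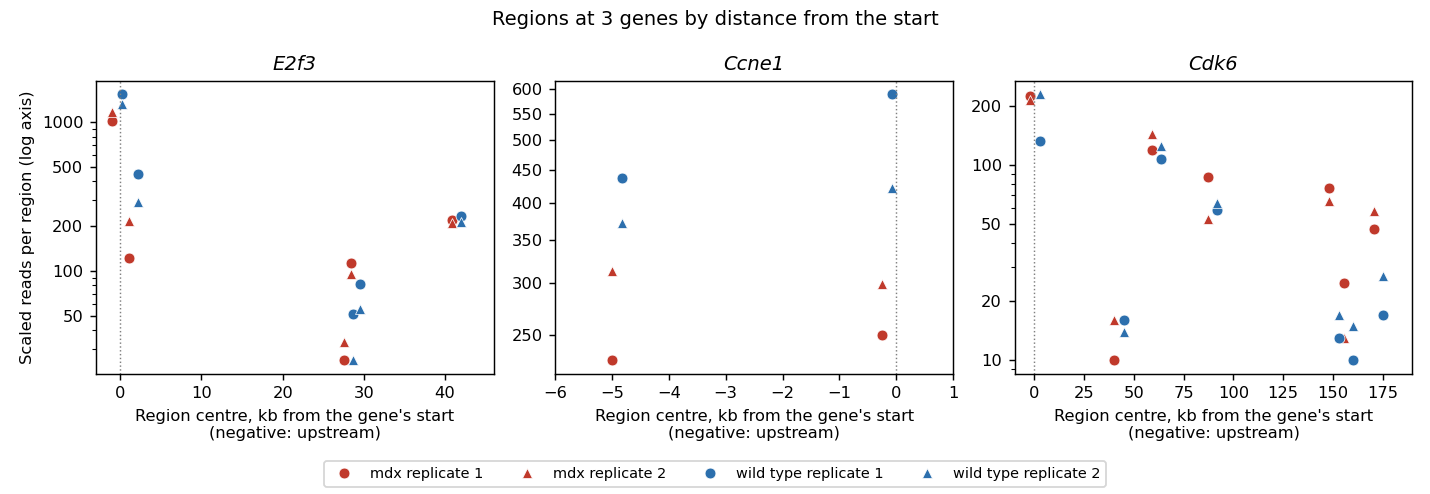
Scaled reads (vertical log axis) of regions at E2f3, Ccne1 and Cdk6 against the distance of the region's centre from the gene's start in kb, mdx in red and wild type in blue, circles for replicate 1 and triangles for replicate 2; groups are shifted sideways slightly for legibility. The lowered E2f3 region lies 1641 bp downstream of the start, and the Cdk6 region with 76 and 65 in mdx against 13 and 17 in wild type lies about 150.7 kb downstream.

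Among the other E2F and pocket protein genes none passed. E2f4 encodes a repressor E2F of resting cells. Its promoter region held 21 and 43 in mdx and 67 and 59 in wild type. The groups did not overlap, as at 43.5% of all tested promoter regions with mdx lower. The log2 fold change was -1.04, SE 0.41 (limma, adjusted p = 0.153). It was the lowest log2 fold change of any member promoter, at a region where mdx had only 15 and 37 recovered reads and wild type 55 and 120. The value rests on the libraries used, at -0.54 on leaving out mdx replicate 1 and -1.54 on leaving out mdx replicate 2. E2f1, an activating E2F, held 187 and 217 in mdx and 226 and 210 in wild type (limma log2 fold change -0.11, adjusted p = 0.792). The pocket proteins Rbl1 and Rbl2 had log2 fold changes of -0.20 and -0.09 with overlapping groups (limma, adjusted p = 0.772 and 0.867). Per length the Rbl1 promoter was the least open of the 29 in wild type, at 79.7 scaled reads per kb in mdx and 92.4 in wild type.

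The G1 kinases and the phosphatase that activates CDK2 did not pass either. Cdk4, a partner of D-type cyclins, held 152 and 145 in mdx and 189 and 143 in wild type, and Cdk2 held 102 and 114 in mdx and 97 and 116 in wild type. Their log2 fold changes were -0.15 and 0.02 (limma, adjusted p = 0.757 and 0.969). Cdc25a was at -0.29 (limma, adjusted p = 0.434). At the Cdk6 promoter, 1040 bp wide, the values were 225 and 215 in mdx and 132 and 229 in wild type, the highest log2 fold change of the G1 promoters at 0.34 with SE 0.26 (limma, adjusted p = 0.475). Only wild type replicate 1 was low there, and without that library the value was -0.06. Ccnd1, the cyclin D1 gene, has no linked promoter region, and its region 1736 bp upstream held 53 and 80 in mdx and 67 and 109 in wild type (limma log2 fold change -0.39, adjusted p = 0.532). Leaving out mdx replicate 1 or 2 gave -0.09 or -0.68 at Ccnd1, and leaving out wild type replicate 1 or 2 gave -0.73 or -0.04.

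In the S phase genes 0 of 8 promoter regions passed, 5 of 8 log2 fold changes were below 0, and the median was -0.07, the nearest to 0 of the 3 classes. The MCM genes encode subunits of the replicative helicase that is loaded at origins. Mcm3 was the most open of them and held 503 and 433 in mdx and 749 and 511 in wild type (limma log2 fold change -0.41, SE 0.20, adjusted p = 0.241). Its groups did not overlap, as at 43.5% of all tested promoter regions with mdx lower, and mdx replicate 1 at 503 lay close to wild type replicate 2 at 511. The log2 fold change was -0.13 when wild type replicate 1 was left out and -0.68 when wild type replicate 2 was. Mcm5, Mcm6 and Mcm2 were at -0.14, -0.25 and -0.01 (limma, adjusted p = 0.673, 0.652 and 0.994). Cdc6, which loads the helicase, was at 0.06 and E2f8, an atypical repressor E2F of S phase, at 0.18 (limma, adjusted p = 0.936 and 0.64).

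The promoters of both nucleotide synthesis genes of the list did not pass. Tyms, thymidylate synthase, held 51 and 64 in mdx and 51 and 38 in wild type (limma log2 fold change 0.37, SE 0.35, adjusted p = 0.564), the highest log2 fold change of an S phase promoter. Rrm2, the regulated subunit of ribonucleotide reductase, held 180 and 185 in mdx and 204 and 216 in wild type at its promoter (limma log2 fold change -0.20, SE 0.21, adjusted p = 0.603). A second Rrm2 region, chr12:24703025-24703324, 5066 bp upstream of the start, had higher values in mdx, with 98 and 51 in mdx and 28 and 27 in wild type. The groups did not overlap, with mdx higher, as at 35.3% of tested distal regions. The mdx libraries differed from each other, and 71 and 44 recovered reads stand behind the mdx values and 23 and 55 behind the wild type values. Its log2 fold change, 1.33 with SE 0.40, did not pass (limma, adjusted p = 0.0751).

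The mitotic genes held 9 promoter regions, of which 0 passed, and their median log2 fold change of -0.40 was the lowest of the 3 classes. Cdk1, the kinase that starts mitosis, held 123 and 136 in mdx and 237 and 188 in wild type (limma log2 fold change -0.70, SE 0.23, adjusted p = 0.0988). Its groups did not overlap, as at 43.5% of all tested promoter regions with mdx lower. Bub1, a kinase of the spindle checkpoint, held 91 and 70 in mdx and 134 and 116 in wild type (-0.64, SE 0.27, limma, adjusted p = 0.186). Ccna2, cyclin A2, was the most open member per length, at 1320 scaled reads per kb in mdx and 1766 in wild type. It held 645 and 675 in mdx and 1029 and 737 in wild type (limma log2 fold change -0.40, SE 0.17, adjusted p = 0.191), and after cyclic loess its log2 fold change was -0.12. It was -0.16 when wild type replicate 1 was left out and -0.64 when wild type replicate 2 was. Mki67, the gene of the proliferation marker Ki-67, was at -0.51, Top2a, topoisomerase II alpha, at -0.24 and Ccnb1, cyclin B1, at -0.20 (limma, adjusted p = 0.231, 0.617 and 0.63).

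Plk1, the polo-like kinase of mitotic entry and spindle assembly, had the opposite sign. Its promoter held 62 and 69 in mdx and 37 and 38 in wild type. Both mdx libraries were higher, as at 10.4% of all tested promoter regions, and the 2 libraries of each group lay close together. The log2 fold change, 0.79 with SE 0.34, was the highest of the 29 member promoters and did not pass (limma, adjusted p = 0.184). Cdc20, the activator of the anaphase-promoting complex, was at 0.20 with overlapping groups (limma, adjusted p = 0.705). Aurkb, the kinase of the chromosomal passenger complex, had a narrow promoter region of few reads, with 14 and 14 in mdx and 28 and 19 in wild type (limma log2 fold change -0.68, adjusted p = 0.454). Its distal region, 4469 bp upstream, held 44 and 41 in mdx and 18 and 42 in wild type (limma log2 fold change 0.60, adjusted p = 0.455). Only wild type replicate 1 was low there, and leaving it out gave 0.016, against 1.19 on leaving out wild type replicate 2.

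Cdk1 and Plk1 are printed as the mitotic promoters with the lowest and the highest log2 fold change, with the same motifs in capitals and from the same RefSeq windows.
Cdk1, chr10:69352863-69353162, minus strand: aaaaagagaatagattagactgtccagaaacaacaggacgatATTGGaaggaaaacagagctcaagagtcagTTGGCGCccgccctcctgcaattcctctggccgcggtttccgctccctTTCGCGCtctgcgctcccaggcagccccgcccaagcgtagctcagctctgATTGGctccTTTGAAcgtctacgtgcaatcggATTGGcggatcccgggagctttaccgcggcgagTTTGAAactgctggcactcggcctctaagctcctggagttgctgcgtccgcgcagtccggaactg
Plk1, chr7:122159185-122159484, plus strand: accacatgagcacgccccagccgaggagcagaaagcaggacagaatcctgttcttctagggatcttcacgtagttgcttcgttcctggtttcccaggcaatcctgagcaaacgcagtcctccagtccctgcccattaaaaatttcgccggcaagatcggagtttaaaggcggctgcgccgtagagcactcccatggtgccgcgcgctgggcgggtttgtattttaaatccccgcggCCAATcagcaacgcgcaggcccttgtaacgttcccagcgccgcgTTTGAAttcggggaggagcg

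Both windows hold a CCAAT box and a CHR element, so these letters are shared by the 2 promoters that lie at opposite ends of the class. Cdk1 holds 2 CHR elements, 3 CCAAT boxes and 2 E2F-like cores, and Plk1 holds 1, 1 and 0. Of the 38 genes, 30 are in the promoter table, and 12 of these hold a CHR element, 22 a CCAAT box and 15 an E2F-like core. Of all 27025 genes in the table the shares were 20.2%, 41.1% and 10.9%. The CHR element was found in 7 of 9 mitotic genes, 2 of 10 S phase genes and 3 of 11 G1 genes, and the E2F-like core in 3 of 9, 7 of 10 and 5 of 11.

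**Figure D3:**
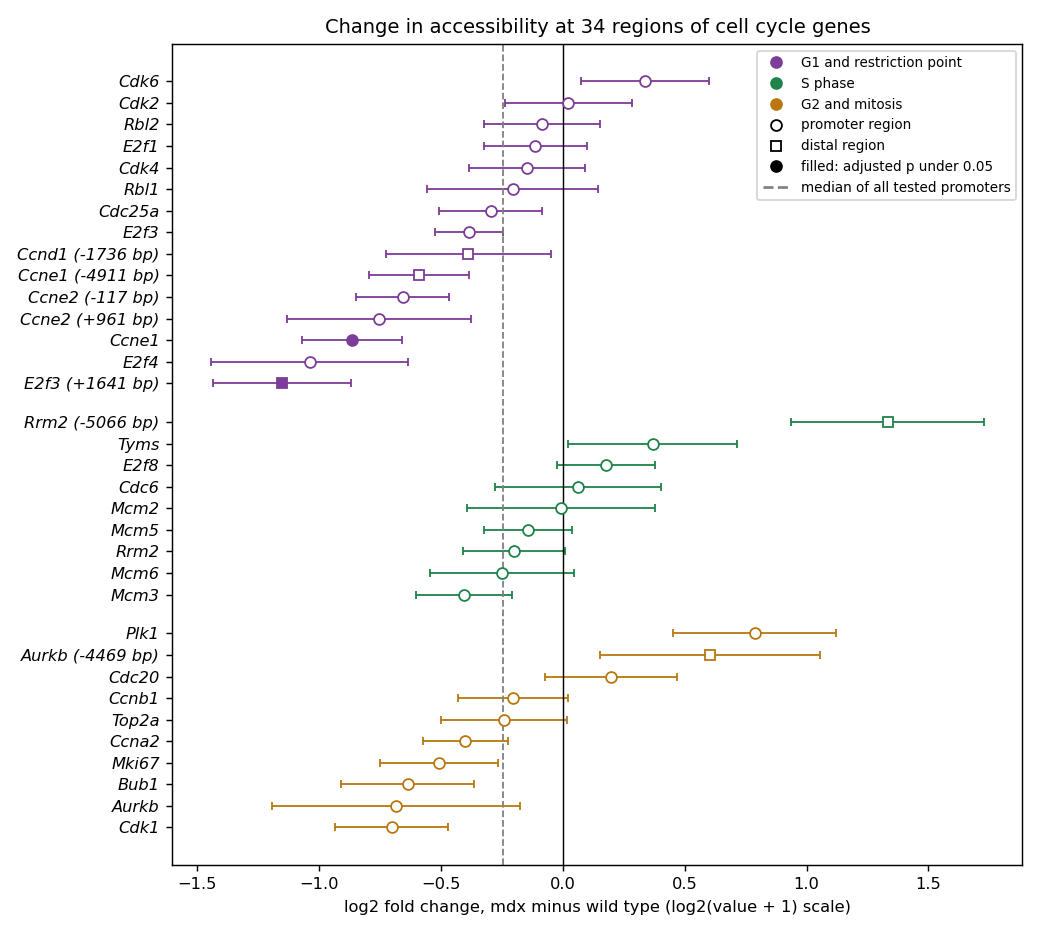
Log2 fold change, mdx minus wild type, of each of the 34 regions (points) with its standard error from limma (bars), grouped by class; circles are promoter regions, squares distal regions, and filled symbols passed at an adjusted p under 0.05. The 2 filled symbols are the Ccne1 promoter (-0.86) and the downstream E2f3 region (-1.15), and the dashed line is the median of all tested promoter regions (-0.25).

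The members as a whole lay close to all promoters. The median log2 fold change of the 29 member promoters was -0.20, against -0.25 for all 11292 tested promoter regions, and 22 of 29 lay below 0, against 74.6% of all tested promoter regions. The groups did not overlap, with mdx lower, at 14 of 29, against 43.5% of all tested promoter regions, and with mdx higher at 2, Plk1 and E2f8, against 10.4%. At an unadjusted p under 0.05 (limma), 7 were lower and 1 higher, against 17.8% and 3.22%. By class the median was -0.25 in G1 genes, -0.07 in S phase genes and -0.40 in mitotic genes, and the difference between classes was not tested. With the promoter medians of the libraries set equal, the median of all tested regions was 0.19 in place of -0.01, and that of the member promoters was -0.01 in place of -0.20.

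The median absolute log2 gap between the 2 libraries was 0.21 in mdx and 0.24 in wild type over the 29 promoters. Over all tested promoter regions it was 0.275 and 0.258. The median absolute log2 fold change of the 29 was 0.29. These are unlike measures, since the gap is between single libraries and the fold change is between means of 2. The fold changes also still hold the median of all tested promoter regions, -0.25.

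Summed over a class and taken per 10000 scaled reads in all tested promoters, so that a difference common to all promoters cancels, the G1 promoters held 10.4 and 11.2 in mdx and 12.6 and 13.3 in wild type. Without the E2f3 region, the strongest, these were 6.51 and 6.65 in mdx and 7.56 and 8.13 in wild type, still without overlap. These sums still hold the Ccne1 promoter, which passed, and both Ccne2 promoter regions, so they do not describe the other G1 promoters. With mdx lower, groups did not overlap at 5 of 12 G1 promoters, against 43.5% of all tested promoter regions. These were the upstream E2f3, Ccne1, both Ccne2 and the E2f4 regions, and at the other 7 the groups overlapped. Whether the sum differs without the E2f3, Ccne1 and Ccne2 regions was not tested. The mitotic promoters held 5.47 and 6.27 in mdx and 7.04 and 6.77 in wild type, and without Ccna2 3.004 and 3.646 in mdx against 3.665 and 3.889 in wild type, where the nearest libraries almost met. The S phase promoters held 5.51 and 5.90 in mdx and 5.99 and 5.97 in wild type, and without Mcm3 the groups overlapped, with 3.58 and 4.22 in mdx and 3.53 and 3.97 in wild type. These sums are descriptions, and an exact permutation test of 2 against 2 libraries could not reach the threshold.

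**Figure D4:**
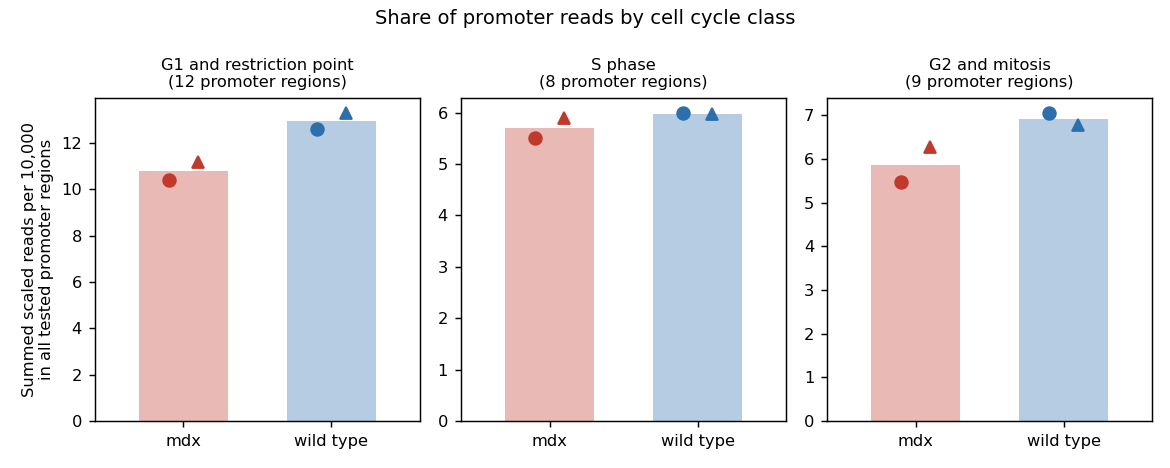
Summed scaled reads of the promoter regions of each class per 10000 in all tested promoter regions (vertical axis), bars at the mean of 2 libraries and points for each library, mdx left of wild type. The G1 class, which has the highest sums, shows the widest absolute gap. It held 10.4 and 11.2 in mdx against 12.6 and 13.3 in wild type. The S phase class shows the narrowest, 5.51 and 5.90 in mdx against 5.99 and 5.97 in wild type. By median log2 fold change the mitotic class was the lowest, at -0.40 against -0.25 in G1 genes.

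A wider list of 96 further cell cycle genes gave 89 linked regions at 84 genes, 86 of them promoter regions, and 0 passed in either direction (limma). At an unadjusted p under 0.05, 14 of 86 promoter regions were lower and 0 higher, against 17.8% and 3.22% of all tested promoter regions, and voom on the recovered reads also called 0. The median log2 fold change of these promoters was -0.29, against -0.25 for all tested promoter regions. Of the 86, 69 lay below 0, against 74.6% of all tested promoter regions. By class the median was -0.43 over 14 G1 promoters, all 14 below 0, -0.27 over 32 S phase promoters and -0.29 over 40 mitotic ones. The difference between classes was not tested. The groups did not overlap, with mdx lower, at 47 of 86, against 43.5% of all tested promoter regions, and, with mdx higher, at 3 of 86, against 10.4%.

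The smallest p of the wider list was at Rb1, the retinoblastoma gene and founding pocket protein. Its promoter held 247 and 268 in mdx and 456 and 367 in wild type (limma log2 fold change -0.67, SE 0.19, adjusted p = 0.0679). Ncapd2, a condensin subunit, held 373 and 349 in mdx and 563 and 494 in wild type (-0.55, limma, adjusted p = 0.0862), and Gins4, a subunit of the helicase-bound GINS complex, held 235 and 293 in mdx and 426 and 365 in wild type (-0.59, limma, adjusted p = 0.103). In all 3, which were picked by their small p, the groups did not overlap, as at 47 of the 86 promoters with mdx lower. With a mean value of at least 50, Rb1 (limma, adjusted p = 0.0255) and Ncapd2 (0.0445) passed as lower.

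Of the 38 genes, 9 have no linked region among those analysed here: Ccnd2, Ccnd3, E2f2, Pcna, Mcm4, Mcm7, Ccnb2, Foxm1 and Aurka. By RefSeq gene positions, 4 of these 9 overlap a region that the table gives to another gene or to none. Foxm1, a transcription factor of mitotic genes, overlaps a region linked to its neighbour Rhno1, which held 148 and 209 in mdx and 263 and 224 in wild type (limma log2 fold change -0.46, adjusted p = 0.258). Mcm7, another helicase subunit, overlaps 2 regions linked to its neighbour Ap4m1. The region 51 bp from an Mcm7 start held 66 and 88 in mdx and 94 and 87 in wild type (-0.24, limma, adjusted p = 0.653), and the region 159 bp from one held 61 and 57 in mdx and 50 and 52 in wild type (0.21, limma, adjusted p = 0.745). None of these passed. E2f2, an activating E2F gene, contains a region with no linked gene 317 bp from a RefSeq start, with 40 and 38 in mdx and 53 and 65 in wild type (-0.58, limma, adjusted p = 0.341). Ccnd3, the cyclin D3 gene, contains 5 such regions, with log2 fold changes of -0.41 to 0.08, and 0 of them passed. The region 45 bp from a Ccnd3 RefSeq start held 119 and 69 in mdx and 120 and 112 in wild type (-0.35, limma, adjusted p = 0.522). Pcna, Ccnb2, Aurka, Ccnd2 and Mcm4 overlap no region analysed here.

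Inside the RefSeq bodies of the 38 genes there were 13 regions with no linked gene, at 4 genes, and 1 passed, which is named here after its values were seen. It lies in Cdk6, at chr5:3494459-3494652, about 150.7 kb downstream of the start, and held 76 and 65 in mdx and 13 and 17 in wild type. Both mdx libraries were well above both wild type libraries, and limma put the log2 fold change at 2.17, SE 0.40 (adjusted p = 0.0157). Of all tested regions with no linked gene, 4.96% were called higher in mdx and 0.447% lower. A second Cdk6 region about 173.0 kb downstream held 47 and 58 in mdx and 17 and 27 in wild type, and did not pass (limma log2 fold change 1.25, adjusted p = 0.101). Groups did not overlap there either, as at 35.3% of tested distal regions with mdx higher. The other 3 Cdk6 regions with no linked gene had log2 fold changes of -0.22 to 0.18, and 2 in E2f3 had 0.62 and -0.31, and none of these passed. The Cdk6 promoter had overlapping groups.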

How the data were processed

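ATAC-seq libraries of sorted satellite cells from mdx and wild type mice were compared, 2 per group. The authors deposited 1 table of regions with a score per library. In 3 of the 4 libraries whole values are missing at the steps that a factor above 1 and rounding would leave. Wild type replicate 2 has no such gaps, and its factor, below 1, was read from the values onto which an additional read number would round, which were 1.39 times as frequent as the values around them. The deposited scores were therefore treated as reads multiplied by a factor per library and rounded, and not as counts; the factor of wild type replicate 2 rests on the weaker evidence. The factors recovered were 1.38 and 1.16 for mdx and 1.22 and 0.492 for wild type. The submitters' processing notes name Trimmomatic 0.33, STAR 2.5.3a, Picard 2.9.0, MACS2 2.1.0, DESeq, DESeq2 and the mm10 build, with no order or roles. No source used here says whether reads were shifted for the transposase.

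The planned count test was replaced, since the values are scaled. Kept were regions where 2 or more libraries reached a value of 10 (33161 of 35019), and these were tested with limma 3.58.1 in R 4.3.3, with a mean-variance trend, on log2(value + 1), which understates the change of low regions. Fold changes are on that scale, mdx minus wild type, and p-values were adjusted by Benjamini-Hochberg over all tested regions. The fit was tested on simulated data. Recovered reads in regions numbered 3208479 and 3607633 for mdx and 3693096 and 8164388 for wild type. Values at low regions therefore rest on the most reads in wild type replicate 2, while wild type replicate 1 was close to mdx replicate 2.

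The genes and lists were chosen with earlier results of these data known. Full values are given for every member region that passed and, in each class, for the 3 promoter regions with the smallest p, those with the highest and lowest log2 fold change and that with the highest mean; from the wider list, the 3 promoter regions with the smallest p. Other members have shorter values. Same-numbered libraries did not deviate together (Pearson -0.11, Spearman -0.14 over 33161 regions), so the numbers were not taken as pairs. Alternatives were other scalings, filters and pseudocounts, voom, replicate blocks and leaving out each library. Gene positions and promoter sequences are from RefSeq (GRCm38.p6); 30 of 38 genes had a promoter sequence.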

Additional observations from a re-analysis of the deposited data

How the results depend on the processing

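The 2 calls among the 34 regions were 2 with scaling by totals, promoter medians set equal, cyclic loess and a pseudocount of 5 (6.17%, 5.97%, 6.77% and 5.91% of all tested regions, against 4.18% as reported). They were 3 with a mean of at least 50 (11% of all tested) and with voom (6.01%), 1 with a pseudocount of 0.1 (3.02%), 0 with no filter (1.31%), 5 at a threshold of 0.1 (10.2%), and 11, all lower, with distal medians set equal (14.1%). Leaving out each library gave 0 to 0, as for all 33161 regions, so these fits say nothing of single regions. The wider list's 0 calls became 20 with distal medians set equal, 2 with a mean of at least 50 and 2 at a threshold of 0.1, under the same shares of all tested regions. These shares count both directions, over promoter and distal regions together. With distal medians set equal, the median of all tested promoter regions was -0.58. The median of the member promoters was -0.007 with promoter medians set equal and -0.54 with distal medians set equal, the choice that moved it most among those run. Of all calls 78.9% were higher in mdx, 92.0% with promoter medians set equal, 26.1% with distal medians set equal and 62.6% with a mean of at least 50. The Cdk6 promoter was reversed without wild type replicate 1, at -0.058, and ranged from -0.058 to 0.73 over the left-out libraries.

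With the replicate number as a block, 3 member regions and 0 of the wider list passed, against 8.33% of all tested regions, and the added call was the distal Rrm2 region, higher in mdx (limma, adjusted p = 0.0305; 0.0106 to 0.115 over its alternatives with all libraries). A crossed pairing, added after seeing the data, gave 9 and 8, against 16.5%. Few reads limit both Aurkb regions, the Mcm2 promoter and the distal Rrm2 region most, by the sum over the 4 libraries.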
